A study of Mus musculus with 15 samples.

Results

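Cx3cr1 encodes the receptor for fractalkine, and in the deposited table it is the assigned gene of 3 of the 1544 sites bound by both RevErbalpha and RevErbbeta in mouse macrophages. These 3 sites are every row of the table whose gene name is Cx3cr1. They carry the gene ID NM_009987, which is 1 of 1220 gene IDs with a common site and 1 of 54 with exactly 3. All 3 are of the authors' enhancer classes, which rest on high H3K4me1, a histone mark of enhancers, and low H3K4me3, a mark of promoters. Nascent RNA at the sites and over the gene was higher in macrophages labelled DKO for both RevErbs, by more than at most sites and genes of the table, and capped nascent RNA at the sites was lower in cells with tagged RevErbalpha.

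RevErbalpha (gene Nr1d1) and RevErbbeta (gene Nr1d2) are nuclear receptors of the circadian clock that bind DNA and recruit corepressors, and they are known as transcriptional repressors. Enhancers are stretches of DNA away from gene starts that raise the transcription of their target genes, and active ones are themselves transcribed into short enhancer RNAs. CX3CR1 is a receptor coupled to inhibitory G proteins. Its ligand, fractalkine, is made as a membrane-bound adhesion molecule that proteases can release as a chemoattractant. The receptor is known for its high level on patrolling monocytes, microglia and other resident macrophages.

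Binding was measured by ChIP-seq in the mouse macrophage cell line RAW, in cells that expressed RevErbalpha or RevErbbeta with a biotin tag and were pulled down on streptavidin beads. A library of control RAW cells labelled BirA, the enzyme that attaches the biotin, served as the background here; its column bears the name BirA-input, which could also mean an input library. Capped 5' ends of nascent RNA were measured by 5'GRO-seq in control RAW cells (BTEV-Ctrl) and in RAW cells that expressed tagged RevErbalpha (BLRP-RevErba). Nascent RNA was measured by GRO-seq in bone marrow derived macrophages of C57Bl6 background. The group labelled WT carried flox/flox alleles of both RevErb genes, and the group labelled DKO carried the same alleles together with Tie2-Cre. The floxed alleles are thus shared by both groups, and the Tie2 promoter drives Cre in endothelial and blood-forming cells rather than in macrophages alone. The labels give 1 sample for each of these 7 groups. The table holds 3 runs for each RevErb and 2 gene-level runs for each genotype, taken here as repeat runs of 1 sample. Differences between conditions thus have neither a replicate check nor a p-value. The header also names KLA-treated and serum-shocked libraries, and no column tells whether any ChIP-seq run is one of them. The labels do not tell whether the tagged lines were single clones or whether bone marrow was pooled.

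ChIP-seq runs held 598490 to 5276592 tags for the RevErbs, 10548880 for BirA, and the 5'GRO-seq libraries 18708148 (control) and 7238710 (tagged RevErbalpha). The headers give totals of 34852907 to 46649008 for the gene-level GRO-seq runs. Gene-level signal of Nr1d1, a targeted gene, was higher in the runs labelled DKO (9.44 and 9.56 on the log2 scale) than in those labelled WT (7.91 and 7.48). That value covers the whole gene, so it does not check whether the floxed part was removed. Of 9 macrophage markers, 3 had values, Csf1r, Fcgr1 and Tyrobp, and none of them was counted as higher or lower in the runs labelled DKO. Over all gene IDs 1.97% were counted as higher and 0.738% as lower. None of 3 is thus near the background and does not check the identity of the cells. No listed marker of T cells, B cells, neutrophils, dendritic, endothelial or fibroblast cells had a value in the table, which covers only genes with a common site, so other cell types could not be checked.

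The sites lay on chromosome 9 of mouse build mm9. The nearest to the gene start, called the 9.4 kb site here, spans chr9:119967948-119968104, and its class in the authors' table is that of enhancers not marked intergenic, read here as genic, which held 687 sites. The 24.9 kb site spans chr9:119952428-119952584 and the 30.7 kb site chr9:119946631-119946787, and both are in the intergenic enhancer class of 556 sites. The deposited distances to the start were 9374, 24894 and 30691 bp. Added to the site centres, all 3 gave the same start, position 119977400. The distances are positive, which in the annotation tool's convention means downstream of the start, and the gene lies on the minus strand in RefSeq. The intergenic sites were 5797 bp apart and the 9.4 kb site lay 15520 bp from the nearer of them. No common site assigned to Cx3cr1 lay at its start.

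The sequence before the gene start is shown because the gene-level signal differed while no common site was assigned there. It is the 250 bases upstream of the RefSeq start on build GRCm38.p6, chr9:120068297-120068546, minus strand, a different build from that of the sites, written 5' to 3'. Capitals would mark a motif match, and there is none.
Cx3cr1 promoter: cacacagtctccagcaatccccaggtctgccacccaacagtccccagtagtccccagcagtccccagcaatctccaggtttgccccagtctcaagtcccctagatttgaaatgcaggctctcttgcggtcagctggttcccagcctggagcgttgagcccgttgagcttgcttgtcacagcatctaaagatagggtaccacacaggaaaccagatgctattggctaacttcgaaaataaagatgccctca
The letters AGGTCA, the half-site that RevErbs and many other nuclear receptors recognise, were not found on either strand, and 14.02% of the 32851 RefSeq promoter windows of this length hold them. TAGGTCA, which contains that half-site with a base before it, was not found either, against 2.23% of windows. GGAAGT, a form of the site of ETS factors such as PU.1, was also not found, against 19.7% of windows. These counts describe the letters of this window only. The sequences of the 3 sites were not analysed here.

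By the means of the runs, both RevErbs bound the 9.4 kb and 30.7 kb sites more strongly than most common sites, and the 24.9 kb site less strongly than the median site. Binding values are log2 tags per 10000000 over the length of the site. At the 9.4 kb site the RevErbalpha runs read 6.83, 8.27 and 8.09 (mean 7.73, SD 0.78 over 3 runs) and the RevErbbeta runs 9.0, 8.18 and 8.83 (mean 8.67, SD 0.43). The BirA library read 1.26 there, below all 6 runs. Of all 1544 common sites this one ranked 32nd by the RevErbalpha mean and 18th by the RevErbbeta mean.

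At the 30.7 kb site the RevErbalpha runs read 5.29, 7.58 and 8.01 (mean 6.96, SD 1.46) and the RevErbbeta runs 9.08, 7.31 and 8.63 (mean 8.34, SD 0.92), against 1.5 for BirA. Its ranks were 99th for RevErbalpha and 29th for RevErbbeta. The RevErbalpha value of this site depended on the runs: it was 7.795 without run 1 and 5.29 with only run 1, the deepest, in which the site ranked 587th. At the 9.4 kb site that run alone gave 6.83. The runs of the 9.4 kb and 30.7 kb sites overlapped for both proteins.

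At the 24.9 kb site the RevErbalpha runs read 4.41, 6.56 and 4.50 (mean 5.16, SD 1.22) and the RevErbbeta runs 5.72, 5.28 and 0.61 (mean 3.87, SD 2.83), against 1.14 for BirA. All 3 RevErbbeta runs lay below every RevErbbeta run at the other sites. The RevErbbeta mean ranked 1523rd of 1544 and the RevErbalpha mean 1008th. The low RevErbbeta mean came from run 3, a shallow run of 780281 tags in which 1 tag is worth 3.79. Its value of 0.61 was below that of 1 tag. Without run 3 the RevErbbeta mean was 5.50, without run 1 it was 2.945 and without run 2 it was 3.165. The RevErbalpha mean was 4.455 without run 2. This site was above the median of all sites in RevErbbeta run 1 (5.72 against 5.53) and in RevErbalpha run 2 (6.56 against 5.92). Without regard to its size, the order was steady: the 24.9 kb site was lowest in 6 of 6 runs and the 9.4 kb site highest in 5 of 6.

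For scale, RevErbalpha had a median of 5.45 over all common sites, RevErbbeta one of 5.68 and BirA one of 1.1. Sites were called for enrichment, so the distance above BirA is a description and not a finding. Mean RevErbbeta minus mean RevErbalpha was 0.94 at the 9.4 kb site, 1.38 at the 30.7 kb site and -1.29 at the 24.9 kb site, beside a median of 0.285 over all sites. The last of these values turned to 0.34 without RevErbbeta run 3, so its direction rested on that run. At the 30.7 kb site the value was 0.545 without RevErbalpha run 1. About 192 and 203 tags stood behind the values of the strong sites in RevErbbeta run 1, and about 19 behind that of the 24.9 kb site.

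**Figure D1:**
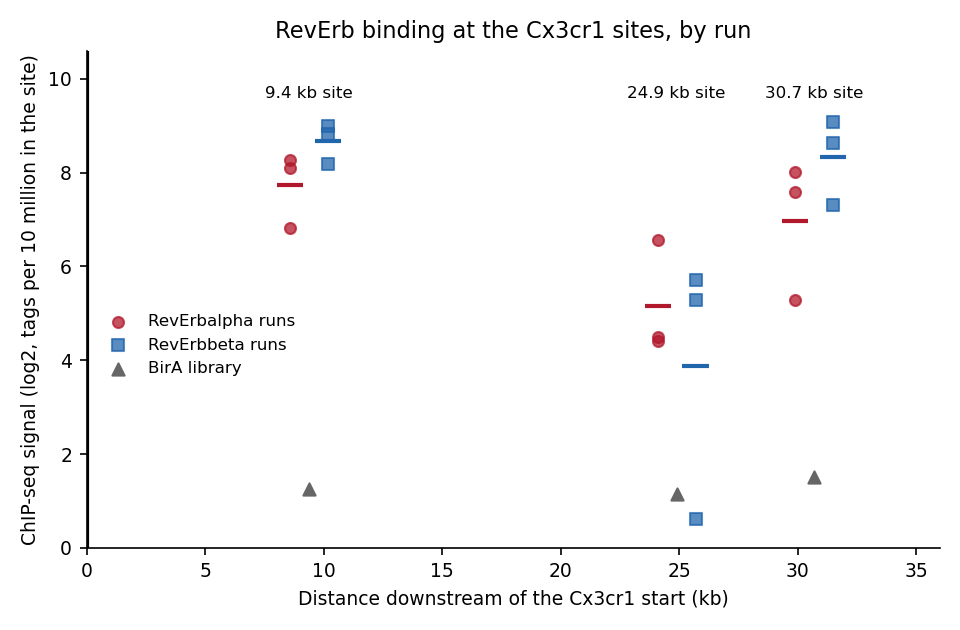
ChIP-seq signal (vertical axis, log2 tags per 10000000 in the site) at the 3 Cx3cr1 sites against their distance downstream of the gene start (horizontal axis, kb; the thick line at 0 is the start). Circles and squares are single runs of RevErbalpha and RevErbbeta, drawn slightly left and right of the site, short bars are their means, and triangles are the BirA library; the 24.9 kb site is lowest in each of the 6 runs and has the RevErbbeta run at 0.61.

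Capped nascent RNA at the Cx3cr1 sites was lower in RAW cells with tagged RevErbalpha than in control RAW cells, most of all at the 30.7 kb site. These 5'GRO-seq values are log2 tags per 10000000 in 500 bp, in 1 library per condition. At the 30.7 kb site control cells had 8.02 and cells with tagged RevErbalpha 5.90, a difference of -2.12, or 4.35-fold lower. About 483 and 42 tags stood behind these values, which gives the difference an approximate 95% interval of -2.64 to -1.70.

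At the 9.4 kb site the values were 5.63 and 4.12, a difference of -1.51, from about 90 and 11 tags (approximate interval -2.72 to -0.75). At the 24.9 kb site they were 7.00 and 6.25, a difference of -0.75, or 1.68-fold lower, from about 237 and 54 tags (approximate interval -1.22 to -0.33). The intervals of the 24.9 kb and 30.7 kb sites did not overlap, and that of the 9.4 kb site overlapped both. The intervals are exact conditional binomial ones on tag numbers taken back from the log2 values and rounded down. At the 9.4 kb site 11.9 tags thus entered as 11, and that interval is not centred on the stated difference. They cover counting error only, since PCR copies are not independent molecules and each condition is 1 library.

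The strongly bound sites were the 2 Cx3cr1 sites past a difference of -1, a size that 20% of all common sites passed, and 15.2% of those above the lower quartile of signal. The 24.9 kb site had a difference near the lower quartile of all sites (-0.80), and 26.7% of sites were lower by 0.75 or more. The median over all sites was -0.23, so part of each difference was shared with the table as a whole. With each library centred on its median site the differences were -1.825, -1.215 and -0.455 at the 30.7, 9.4 and 24.9 kb sites. By size of the decrease these sites ranked 91st, 185th and 407th of 1544.

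The make-up of the locus differed between the libraries. In control cells the 30.7 kb site gave 59.6% of the signal summed over the 3 sites on the linear scale, the 24.9 kb site 29.3% and the 9.4 kb site 11.2%. With tagged RevErbalpha the shares were 39.1%, 50.0% and 10.9%, and the 24.9 kb site, weakest in binding, had the highest signal. In that library the 24.9 and 30.7 kb values rest on about 54 and 42 tags. Whether their order goes beyond counting error was not tested. The sum came to 434 tags per 10000000 in the control library and to 150 in the tagged one, 2.89-fold lower.

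**Figure D2:**
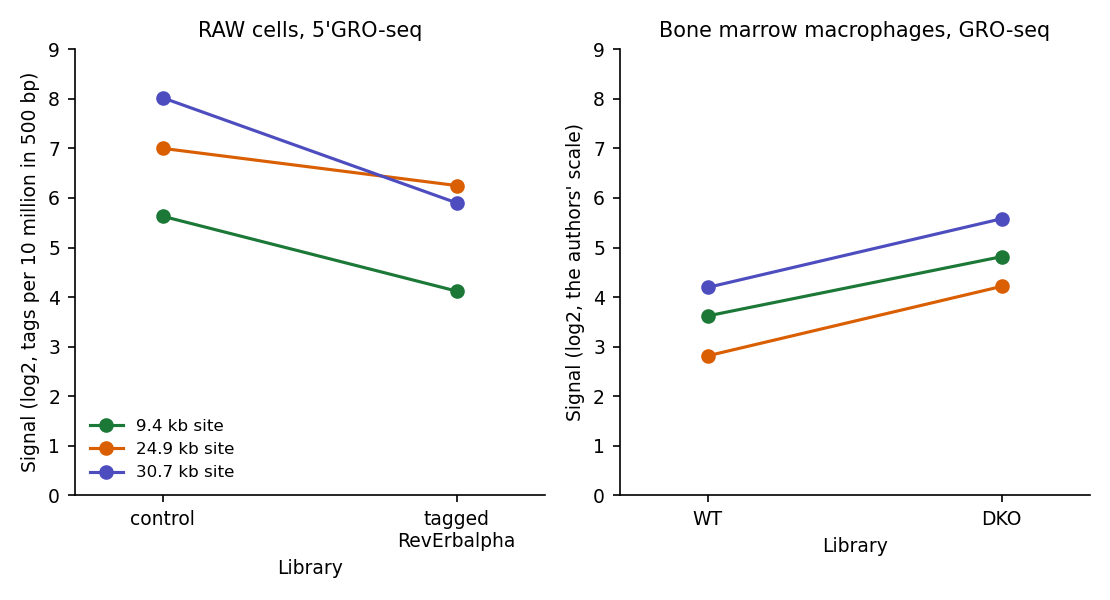
Nascent RNA at the 3 Cx3cr1 sites (vertical axes, log2; horizontal axes, the library). Left, 5'GRO-seq in control RAW cells and RAW cells with tagged RevErbalpha, where the 30.7 kb line falls from 8.02 to 5.90 and crosses the 24.9 kb line; right, GRO-seq in bone marrow derived macrophages labelled WT and DKO, where all 3 lines rise by 1.195 to 1.40. Each point is the value of 1 deposited column, which for GRO-seq may be a mean of runs, and the axes of the panels are in different units.

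In bone marrow derived macrophages, GRO-seq signal at all 3 sites was higher in the library labelled DKO, by similar amounts. The log2 values were 3.62 in the library labelled WT and 4.815 in that labelled DKO at the 9.4 kb site, a difference of 1.195. They were 2.815 and 4.215 at the 24.9 kb site (difference 1.40) and 4.195 and 5.58 at the 30.7 kb site (difference 1.385). In folds of the signal with the 1 added before the logarithm kept, the sites were 2.29, 2.64 and 2.61 times higher. The window and scaling of these columns are not given in the sources used here, so no counting interval could be set.

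The order of the sites was the same in both genotypes, with the 30.7 kb site highest and the 24.9 kb site lowest. The 30.7 kb site gave 50.0% of the summed signal of the 3 sites in the library labelled WT and 51.2% in that labelled DKO, the 9.4 kb site 32.6% and 29.7%, and the 24.9 kb site 17.4% and 19.2%. The sums were 34.6 and 91.6 on the linear scale, 2.64-fold higher. The 24.9 kb site had the weakest binding and the smallest 5'GRO-seq difference. Its GRO-seq difference was as large as those of the strongly bound sites on the deposited scale. With 10 added before the logarithm it was 0.78, near that of the 9.4 kb site (0.80) and below that of the 30.7 kb site (1.06). GRO-seq and 5'GRO-seq were made in different cells with different reads, so their levels were not compared.

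A difference of 1 or more was seen at 3 of the 3 Cx3cr1 sites and at 3.37% of all common sites, where the median difference was 0.03. The Cx3cr1 sites ranked 13th (24.9 kb), 14th (30.7 kb) and 22nd (9.4 kb) of 1544. Among sites above the lower quartile of signal, as all 3 Cx3cr1 sites were, 2.5% passed 1. With 10 in place of 1 added before the logarithm, the differences were 0.80, 0.78 and 1.06 at the 9.4, 24.9 and 30.7 kb sites, and they ranked 5th, 6th and 3rd. The number of common sites past 1 was 52 as deposited and 3 with 10 added. The strand of the site columns is not stated. Transcription of Cx3cr1 itself thus cannot be told apart from RNA started at the 9.4 kb site, which is of the genic class. The 24.9 and 30.7 kb sites lie further downstream of the same start, and whether signal there continued from the gene was not tested.

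Both differences were past 1, lower with tagged RevErbalpha and higher in the library labelled DKO, at 18 common sites, 1.17% of all. That was 34.6% of the 52 sites with higher GRO-seq and 5.83% of the 309 with lower 5'GRO-seq. Of the 18, 2 were Cx3cr1 sites, at 9.4 and 30.7 kb, and 2 were sites of Nr1d1.

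**Figure D3:**
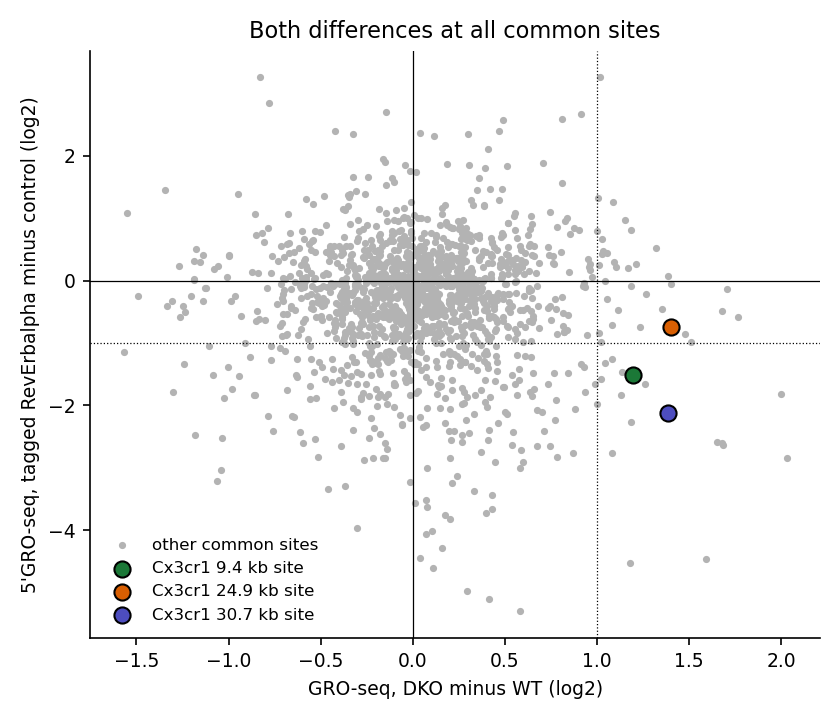
Difference in GRO-seq (horizontal axis, DKO minus WT, log2) and in 5'GRO-seq (vertical axis, tagged RevErbalpha minus control, log2) at each of the 1544 common sites; dotted lines mark 1 and -1. Cx3cr1 sites are the large points, at 1.195 and -1.51 (9.4 kb), 1.40 and -0.75 (24.9 kb) and 1.385 and -2.12 (30.7 kb), to the right of nearly all other sites.

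Cx3cr1 was 1 of 54 gene IDs with 3 common sites, and among these 54 it alone had GRO-seq higher by 1 or more at every site (1.85%). With 10 added before the logarithm 0 of the 54 passed 1 at every site. At a difference of 0.5 Cx3cr1 was the only one both as deposited and with 10 added, and 14 of the 54 (25.9%) had all sites higher by any amount. Nr1d1, which is also 1 of the 54, had 1.595, 1.18 and 0.35. Arntl, which encodes the clock activator BMAL1, had 1.13, 0.93 and -0.18. For 5'GRO-seq, where 20% of all common sites were lower by 1 or more, the picture differed. At every site, 6 of the 54 (11.1%) were lower by 1 or more. They were Arntl, Atp6v1b2, Dot1l, Igf2bp2, Nr1d1 and Tbxas1, and Cx3cr1 was not among them because of its 24.9 kb site. Except for Nr1d1 and Arntl, these genes had gene-level differences of 0.13 to 0.48 between genotypes. Of the 54, 5 (9.26%) were higher at the gene level by 0.5 or more with runs apart, against 1.97% of all gene IDs. The 5 were Nr1d1 (1.805), Cx3cr1 (1.645), Arntl (1.07), E230029C05Rik (0.83) and Egr3 (0.745). E230029C05Rik (runs of 6.81 to 7.88) and Egr3 (3.91 to 4.98) lay below the lower quartile of gene level, 8.43. Of the 24 higher gene IDs in all, 7 lay above that quartile. Whether genes with 3 sites were higher more often than others was not tested.

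Over the whole gene, Cx3cr1 nascent RNA was also higher in the runs labelled DKO, and its WT runs lay far apart. The log2 values were 8.19 and 9.16 in the runs labelled WT (mean 8.675, SD 0.69 over 2 runs) and 10.24 and 10.40 in those labelled DKO (mean 10.32, SD 0.11). Both DKO runs lay above both WT runs, and the lowest DKO run was 1.08 above the highest WT run. The difference of means was 1.645, or 3.13-fold. It was the second largest of 1220 gene IDs, after Nr1d1, and the gap between runs was as large or larger in 2 of 1220, Cx3cr1 included. By the rule of a difference of 0.5 with runs apart, 1.97% of gene IDs were higher and 0.738% lower. Sites and gene were read from the same libraries, so their differences are not separate support for each other. In a bulk sample, more cells with Cx3cr1 transcription and more transcription per cell cannot be told apart.

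The WT runs of Cx3cr1 differed by 0.97, where the median gene differed by 0.17. A difference this large or larger was found in 22 of 1220 gene IDs, and in 3 of the 215 whose mean level lay within 0.5 of that of Cx3cr1, itself included. The runs as a whole were not shifted, with a median of -0.01 for WT run 2 minus run 1. The DKO runs of Cx3cr1 differed by 0.16, near the median of 0.15. Without WT run 1 the genotype difference was 1.16, and without WT run 2 it was 2.13. Its size thus depended on which WT run was used, while its direction was the same with each of the 4 runs left out.

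**Figure D4:**
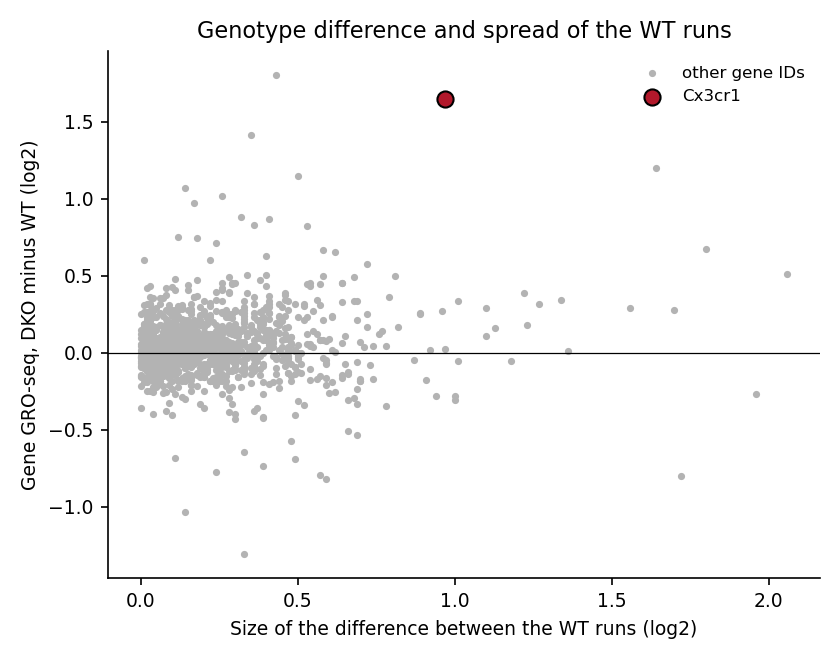
Gene-level GRO-seq difference between genotypes (vertical axis, DKO minus WT, log2) against the size of the difference between the WT runs (horizontal axis, log2) for 1220 gene IDs. Cx3cr1, the large point, combines a genotype difference of 1.645 with a difference of 0.97 between its WT runs.

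The genes whose pattern was most like that of Cx3cr1 were found by the Euclidean distance over 3 differences: the gene-level difference between genotypes, the mean difference of its sites between genotypes, and the mean 5'GRO-seq difference of its sites. Among 914 other gene IDs above the lower quartile of level, the median distance was 2.49. The nearest was Arntl (distance 1.004), with differences of 1.07, 0.63 and -1.89, against 1.645, 1.33 and -1.46 for Cx3cr1. Slc15a3, a lysosomal histidine and peptide transporter, followed (1.04) with 0.88, 0.66 and -1.26. Plin2, a coat protein of lipid droplets, was next (1.46), with 0.435, 1.185 and -2.27.

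Npas2, a clock activator related to Clock, had a distance of 1.49, and Slc7a8, an amino acid transporter subunit, 1.52. The gene-level difference was part of the choice, so the raised DKO values of these 5 genes are a description. The WT runs of Arntl (10.17 and 10.31) and Npas2 (9.47 and 9.30) lay far closer together than those of Cx3cr1. With each difference divided by its SD over these genes, the first 5 were Nr1d1, Arntl, Npas2, Slc15a3 and Arhgap25, of which 3 were shared.

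**Figure D5:**
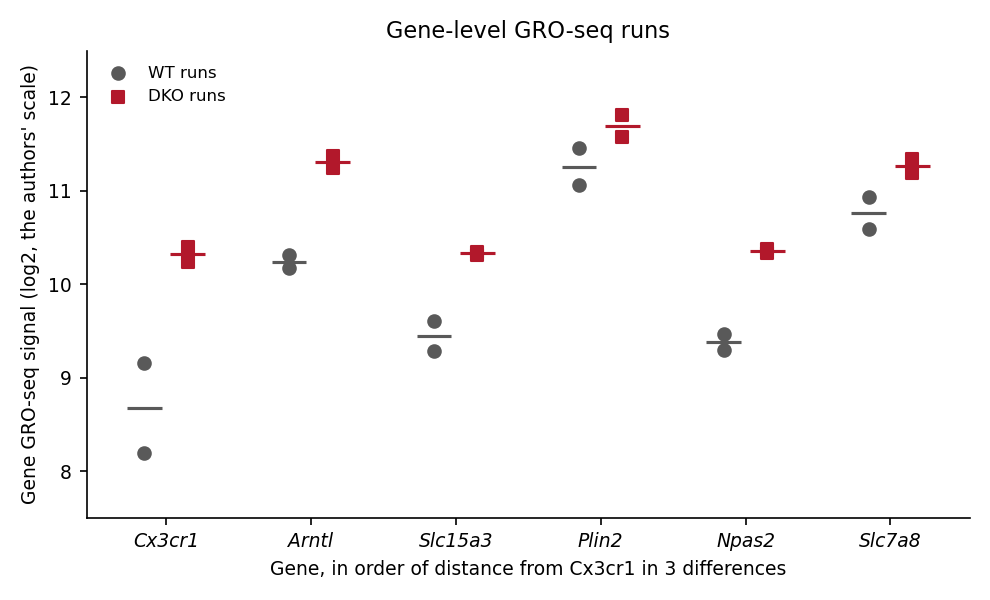
Gene-level GRO-seq signal (vertical axis, log2 on the authors' scale) of Cx3cr1 and the 5 genes nearest to it in the 3 differences (horizontal axis, in order of distance). Circles are the runs labelled WT, squares those labelled DKO and bars their means; the runs of Cx3cr1 labelled WT lie at 8.19 and 9.16 and those labelled DKO at 10.24 and 10.40.

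Other genes of the fractalkine system with a common site are given by their counts, beside the 1.97% of all gene IDs that were higher and the 0.738% that were lower between genotypes. At these shares a count of 0 among so few genes is near the background and is no result about them. Of the ligand and its proteases, Adam17 and Ctss had a common site, and neither was counted as higher or lower. Adam17, a sheddase that releases fractalkine from the membrane, had WT runs of 11.33 and 11.26 and DKO runs of 11.48 and 11.59 (difference 0.24). Ctss, a lysosomal cysteine protease, had 11.71 and 11.17 against 11.45 and 11.52 (difference 0.045). Their sites had GRO-seq differences of 0.34 and 0.315 and 5'GRO-seq differences of -0.29 and 0.21.

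Of 21 other receptors for chemoattractants and related ligands, 6 had a common site, and 0 of the 6 were higher and 0 lower by the gene rule, near the shares of 1.97% and 0.738% over all gene IDs. Their median difference between genotypes was 0.175, against 0.035 over all gene IDs. None of their 8 sites passed 1 in either direction in either assay. Over all sites, 3.37% were higher and 2.2% lower in GRO-seq, and 20% were lower and 4.92% higher in 5'GRO-seq. C3ar1, the receptor for complement C3a, had a difference of -0.03, P2ry6, a nucleotide receptor, had 0.035 and the chemokine receptor gene Ccr3 had -0.005. The others were higher in the mean, with overlapping runs in Cmklr1 (0.34), the chemerin receptor gene, Cxcr4 (0.315) and Ccrl2 (0.445). Of the 35 listed genes that signal below such receptors, 9 had a common site, and 0 of their 11 gene IDs were higher or lower, again near those shares. Their median difference was 0.00. Lyn, a Src family kinase, had 0.00, and Elmo1, which acts with DOCK proteins to activate Rac, had -0.05 and -0.06 for its 2 IDs.

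At the 17 sites of these signalling genes, 5'GRO-seq was lower by 1 or more at 4 and higher at 1, against 20% and 4.92% of all sites. The lower ones were a Prex1 site (-3.14), both Rgs1 sites (-2.54 and -1.38) and an Elmo1 site (-1.82). That Elmo1 site read 2.57 in control cells and 0.75 in tagged cells, below the 1.25 that 1 tag is worth in the tagged library. Another Elmo1 site had 1.64. Prex1 is a Rac exchange factor and Rgs1 an inhibitor of G protein signalling. None of the 17 sites passed 1 in GRO-seq in either direction, against 3.37% of all sites higher and 2.2% lower. Lists are of genes with a common site in these data and are described by their counts alone.

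Of 25 genes of monocytes and resident macrophages, 9 had a common site, and 0 were higher or lower between genotypes, near the 1.97% and 0.738% of all gene IDs, with a median difference of 0.095. Csf1r, the receptor for M-CSF, had 0.095 and Zeb2, a zinc-finger transcription factor, 0.00. At their 13 sites GRO-seq was higher by 1 at 0 and lower at 2, against 3.37% and 2.20% of all sites. The lower ones were the site of Klf4, a transcription factor of monocytes, (-1.265) and a site of Tgfbr1 (-1.105), the type I receptor of TGF-beta. The Klf4 site read 2.855 in the library labelled WT and 1.59 in that labelled DKO, and the Tgfbr1 site 2.19 and 1.085. The median site read 3.68 and 3.765. At the gene level Klf4 had a difference of 0.335 and Tgfbr1 one of -0.08, with overlapping runs in both. 5'GRO-seq was lower by 1 at 2 of the 13, against 20% of all sites, and both were of Tgfbr1 (-1.10 and -1.04).

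The protein-coding neighbours of Cx3cr1 in RefSeq are Xirp1, on the side of the sites, and the chemokine receptor gene Ccr8, on the side of the gene start. Neither is an assigned gene in the table. The only other common sites within 1 Mb were 2 sites of Myd88, the adaptor of Toll-like receptors, 703140 and 714633 bp from the nearest Cx3cr1 site. Their GRO-seq differences were 0.585 and -0.105 and their 5'GRO-seq differences -0.70 and -0.54. Myd88 itself had WT runs of 8.03 and 7.88 and DKO runs of 7.79 and 8.18, which overlapped (difference 0.03).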

How the data were processed

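Reads were mapped to mm9, with Bowtie 0.12.7 and HOMER named, per the submitters' processing notes. The deposited summary table gives log2 values per the file headers: tags per 10000000 in the site (ChIP-seq) or in 500 bp (5'GRO-seq), and GRO-seq signal without a stated window. Of the GRO-seq site values, 51.2% end in 5 thousandths, as means of 2 values given to 2 decimals would. The logarithm was taken as that of the value plus 1. This reading is not exact, since some values do not give whole tag numbers. RevErbbeta run 3 at the 24.9 kb site gives 0.041 tags, for example. Tag numbers and the intervals built on them are thus approximate. Treated libraries are also named in the header, and no column says which runs, if any, were treated.

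Means and differences were recomputed (Python 3.11.15, pandas 2.3.3, SciPy 1.17.1) and lay within 0.01 of the authors' columns. Runs were averaged on the log2 scale as 1 replicate. Folds of a site or of the gene keep the 1 added before the logarithm, while sums and shares were taken without it. A site counted as past the size rule at a difference of 1, and a gene at 0.5 with runs of the genotypes apart. Genes were named by their distance from Cx3cr1 in 3 differences, as list members past a size rule or among the 2 with the highest gene value of a list, or as neighbours within 1 Mb; genes with 3 sites that met a count and the Fcgr1 and Tyrobp markers were named after their values were seen. The members and lists were chosen with earlier results of these data known. Calculations were tested on simulated data. Alternatives were other added constants, centring, size rules and runs left out. Values of H3K9ac, H3K4me1 and PU.1 libraries were not analysed here.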

Additional observations from a re-analysis of the deposited data

How the results depend on the processing

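Many of the 77 alternatives run could not change a sign, being binding levels, counts or site differences with another constant added. Among the rest, 1 sign changed. RevErbbeta minus RevErbalpha at the 24.9 kb site was 0.34 without RevErbbeta run 3, in a comparison added after seeing the data. Also added then, the count of genes with 3 sites that were all higher by 1 went from 1 to 0 with 10 added. GRO-seq differences with 10 added before the logarithm were 0.80, 0.78 and 1.06 at the 9.4, 24.9 and 30.7 kb sites; adding 10 shrinks low values by construction. With only runs of at least 1000000 tags, RevErbalpha binding was 6.83 at the 9.4 kb site and 5.29 at the 30.7 kb site, values of 1 run. The 309 sites with lower 5'GRO-seq became 181 with 10 added, 561 at a size of 0.5 and, in an alternative chosen after seeing the data, 176 above the lower quartile of signal. The 52 sites with higher GRO-seq became 3, 208 and 29 under the same alternatives. The 24 higher genes became 7 at a size of 1 and 7 above the lower quartile of level. Scaling the differences kept 3 of the 5 genes most like Cx3cr1. Depth limits the 24.9 kb site in the shallow ChIP-seq runs, with about 1.29 tags in RevErbalpha run 3 and under 1 in RevErbbeta run 3. It also limits the 9.4 kb site in 5'GRO-seq, with about 11.9 tags in tagged cells. No paired analysis was possible because each group has 1 sample and the labels carry no replicate numbers.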
